A study of Mus musculus with 4 samples.

Results

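The subunits of oxidative phosphorylation were taken as a set of 98 genes of the 46603 in the unfiltered table of lung expression, 85 encoded in the nucleus and 13 on the mitochondrial chromosome. The nuclear members were the genes whose symbol in the file starts as a subunit of complex I (Ndufa, Ndufb, Ndufc, Ndufs or Ndufv with a digit), II (Sdha to Sdhd), III (Uqcr), IV (Cox4 to Cox8) or V (Atp5). The pseudogene Atp5k-ps2 was dropped, and each Ensembl gene was counted 1 time. The file gives the mitochondrial genes under short names such as ND1 or COX1, so those 13 were matched by Ensembl identifier to the annotation's mt- names. The authors' filtered table, which holds 12850 genes kept by an unstated rule, has 85 of the members, 77 nuclear and 8 mitochondrial. The names also bring in 4 genes that are not subunits of a complex: Cox7a2l, which takes part in joining complexes into supercomplexes, Atp5s, Atp5sl, and an identifier that the file labels Ndufa13 and the annotation names Yjefn3. Ndufa4 and Ndufa4l2, named for complex I, are described here with complex IV, where NDUFA4 is now placed.

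RNA was taken from lung tissue of C57BL/6 littermates that were 6 to 8 weeks old, 2 WT (Ifnar1+/+) and 2 SA (Ifnar1 S526A). The SA allele puts alanine in place of a serine in IFNAR1, a subunit of the receptor for type I interferons, which is known to hinder the ligand-independent breakdown of the receptor. All 4 animals had received 100 µl of medium in which B16F10 melanoma cells had grown, into a vein, 3 times a week for 3 weeks. The series has no untreated group, so the comparison is between genotypes under the same treatment, and the substitution itself cannot be read from gene counts. The labels call the tissue lung without naming a lobe, and the design text calls the samples biological replicates without numbering the animals. All p-values below therefore speak of the spread between these 4 samples, which may in part be technical.

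Oxidative phosphorylation moves electrons from NADH through complex I, or from succinate through complex II, to complex III and then, by cytochrome c, to oxygen at complex IV. Complexes I, III and IV pump protons out of the mitochondrial matrix, and complex V makes ATP as the protons return. Complex II is wholly encoded in the nucleus, while the others each combine nuclear subunits with proteins of the mitochondrial genome. Several subunits of complex IV exist as a widely expressed form and a form of heart and skeletal muscle: Cox6a1 and Cox6a2, Cox7a2 and Cox7a1, and Cox8a and Cox8b. Cox7a1 and Cox8b are also well known from brown fat.

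The results turn on these isoform pairs and on the mitochondrial genes. The promoters of the Cox7a and Cox8 pairs are shown first, because the muscle form and the widely expressed form of each pair differed in how they varied between libraries. They are RefSeq promoters on GRCm38.p6, 300 bases around the start of the gene, written from 5′ to 3′ on the strand of the gene. Cox7a1 is at chr7:30183921-30184220 on the plus strand, Cox7a2 at chr9:79759804-79760103 on the minus strand, Cox8b at chr7:140900397-140900696 on the minus strand and Cox8a at chr19:7217567-7217866 on the minus strand. Capitals mark matches, on either strand, to the E-box CANNTG or to the ETS-family core CCGGAAG.
Cox7a1: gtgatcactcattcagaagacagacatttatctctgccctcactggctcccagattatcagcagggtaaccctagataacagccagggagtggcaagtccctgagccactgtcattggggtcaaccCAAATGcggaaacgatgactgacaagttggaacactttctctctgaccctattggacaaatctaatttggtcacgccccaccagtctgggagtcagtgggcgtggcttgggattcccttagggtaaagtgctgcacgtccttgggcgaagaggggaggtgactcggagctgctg
Cox7a2: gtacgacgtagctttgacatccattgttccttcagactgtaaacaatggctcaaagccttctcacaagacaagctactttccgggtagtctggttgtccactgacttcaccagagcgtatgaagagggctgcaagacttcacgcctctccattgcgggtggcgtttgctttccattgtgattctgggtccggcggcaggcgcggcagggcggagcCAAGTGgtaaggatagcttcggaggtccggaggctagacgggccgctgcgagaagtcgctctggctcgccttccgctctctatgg
Cox8b: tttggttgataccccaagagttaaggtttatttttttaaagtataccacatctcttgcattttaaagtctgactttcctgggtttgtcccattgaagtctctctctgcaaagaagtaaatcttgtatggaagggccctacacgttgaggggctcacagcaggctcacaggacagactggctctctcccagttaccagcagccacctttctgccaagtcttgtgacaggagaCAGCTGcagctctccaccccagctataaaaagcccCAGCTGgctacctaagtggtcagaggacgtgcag
Cox8a: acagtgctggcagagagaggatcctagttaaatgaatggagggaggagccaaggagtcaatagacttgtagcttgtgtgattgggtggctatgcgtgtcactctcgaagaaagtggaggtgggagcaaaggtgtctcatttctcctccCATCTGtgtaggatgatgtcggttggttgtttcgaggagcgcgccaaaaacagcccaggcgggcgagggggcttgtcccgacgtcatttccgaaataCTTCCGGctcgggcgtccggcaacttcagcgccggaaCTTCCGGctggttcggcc
An E-box was present in all 4 of these promoters, with 2 matches in Cox8b and 1 in each of the others, and 72.3% of the 32851 mouse promoters in the same table hold at least 1. The ETS core was matched 2 times in Cox8a and in none of the other 3; 8.86% of promoters hold it. The MEF2 core TATTTATA (1.70% of promoters) and the NRF1 core, GCGC and TGCGC with any base between them (4.60%) were also searched on both strands and had no match in these 4 windows. The promoter of Cox6a1, not printed here, holds 2 matches to the NRF1 core and 1 to the ETS core. The GC content was 53.0% for Cox7a1 and 48.3% for Cox8b, against 56.7% for Cox7a2 and 56.0% for Cox8a.

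The second set of sequences bears on which mitochondrial genes could be measured. Copies of mitochondrial DNA lie in the nuclear genome, and a read that fits both places cannot be assigned from its sequence. On GRCm38, a row of such copies on chromosome 1 includes Gm28661, which matched mt-Co2 at 681 of 681 aligned bases, and Gm28438, which matched mt-Nd3 at 344 of 345. The only difference of the second pair is T3C, counted from 1 at the 5′ end of mt-Nd3, with the base of mt-Nd3 first. Below are 60 bases of each transcript from the annotation GENCODE M21, mt-Nd3 from chrM:9459-9518 and mt-Co2 from chrM:7325-7384 on the plus strand, Gm28438 from chr1:24613060-24613119 and Gm28661 from chr1:24615194-24615253 on the minus strand. The capital marks the base that differs.
mt-Nd3: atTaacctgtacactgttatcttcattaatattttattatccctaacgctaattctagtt
Gm28438: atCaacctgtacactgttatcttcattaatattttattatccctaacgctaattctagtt
mt-Co2: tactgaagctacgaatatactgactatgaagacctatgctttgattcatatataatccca
Gm28661: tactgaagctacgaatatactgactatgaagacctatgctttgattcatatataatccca

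The 4 libraries held 27381916 to 38378936 reads in genes, which puts 3 reads, used as the floor of detection, at 0.0782 to 0.110 CPM (counts scaled to a fixed library total). The reads carry no molecular identifiers, so the floor and the intervals given for shares cover counting error only. All levels of single genes are log2 CPM as deposited, and a difference is the SA mean minus the WT mean on that scale. Lung epithelial markers were present at high levels in every library, with the surfactant gene Sftpc at 13.77 to 14.13. Markers of striated muscle were present too, and differed between the groups. Of the 13 cardiac markers in the filtered table, 13 were higher in SA, as were 11 of 11 skeletal muscle markers; their summed level was 1670 and 2451 CPM in WT and 4196 and 6446 CPM in SA. Myl7, a myosin light chain of atrial muscle, stood at 5.54 and 6.45 in WT and 7.41 and 8.24 in SA, while Myl2, that of ventricular muscle, had 0 or 1 read in each library. Other genes of the cardiac list were well counted, with 494 to 2281 reads for Myh7 and 1359 to 5186 for Myl3. The reads of Myl2 alone therefore do not show which kind of muscle was present. Brown fat markers summed to 17.9 and 97.0 CPM in WT and 19.2 and 447 CPM in SA. In tissue RNA, a different number of cells of a type and a different amount of RNA per cell cannot be told apart.

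Nuclear subunits were higher in SA than in WT across all 5 complexes, while mitochondrial transcripts were higher or lower by gene. Of the 77 nuclear members in the filtered table, 76 had a higher mean in SA, and the median difference was 0.37, against 0.06 for all 12850 genes, of which 60.4% were higher in SA. The groups did not overlap for 66 of the 77, all higher in SA, where 37.8% of all genes were separated in that direction and 22.9% in the other; SA 1 alone was above both WT libraries for the same number, 66, where 49.2% of all genes were. Of the 8 mitochondrial members, 6 were higher and 2 lower, with a median of 0.04, and none was separated. No member passed the test. By limma with Benjamini-Hochberg adjustment over 12850 genes, 0 of the 85 members had an adjusted p under 0.05, where 0.311% of all genes did, and the lowest adjusted p was 0.0829. At an unadjusted p under 0.05, limma gave 33 members, all nuclear and higher in SA, where 16.4% of all genes met that and were higher; voom on the recovered reads gave 32, and 0 after adjustment. On the unfiltered table, where limma gave 4.75% of 46603 genes an adjusted p under 0.05, 20 members had one, all nuclear and higher. Of the 8 nuclear members outside the filtered table, Cox7b2 and Cox8c had 0 or 1 read in each library and give no direction. Of the other 6, Atp5g2 and Atp5s had a higher mean in SA, Cox6b2, Cox7c and Atp5l a lower one, and Yjefn3 nearly the same mean in both groups, at 10 to 237 reads per library.

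**Figure D1:**
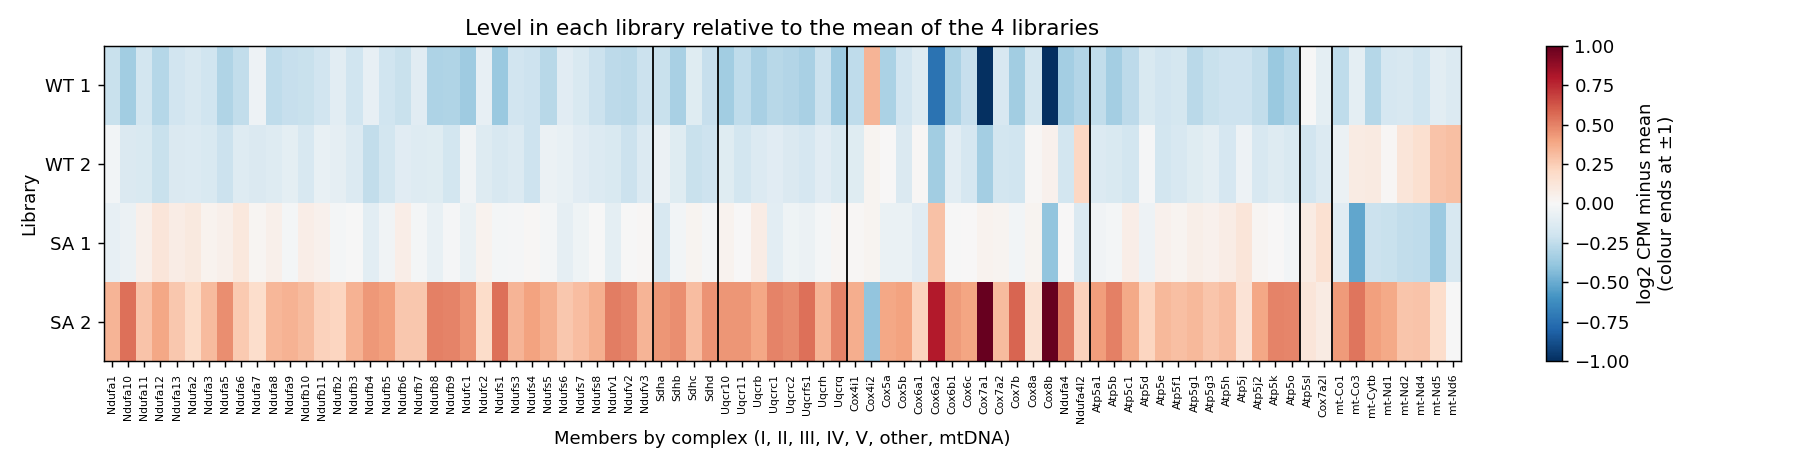
Level of 84 members of the filtered table (columns, by complex) in each library (rows), as log2 CPM minus the mean of the 4 libraries, with colours ending at 1 above and below. Nuclear members are mostly lowest in WT 1 and highest in SA 2, and mitochondrial members are low in WT 1 and SA 1 and high in WT 2 and SA 2.

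The SA libraries differed from each other about as much as the genotypes did. Library numbers are only names, and the order given here was seen in the data. The mean level of the 77 nuclear members was 5.75 and 5.88 in WT 1 and 2, and 6.01 and 6.40 in SA 1 and 2. The libraries stood in this order for 59 of the 77, where 14.1% of all genes had it, and SA 2 was the highest library for 75, where 32.7% of all genes had that. The step from SA 1 to SA 2, inside a genotype, had a median of 0.36 and was upward for 75 of 77, while the step from WT 2 to SA 1, across genotypes, had a median of 0.14 and was upward for 68. Without SA 2 the median difference was 0.20, and 73 of 77 were still higher. The muscle markers had the same order of libraries: their mean level was 5.05, 5.74, 6.55 and 7.23. Setting the muscle isoforms Cox6a2, Cox7a1 and Cox8b aside left the nuclear median at 0.37, with 73 of 74 higher.

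**Figure D2:**
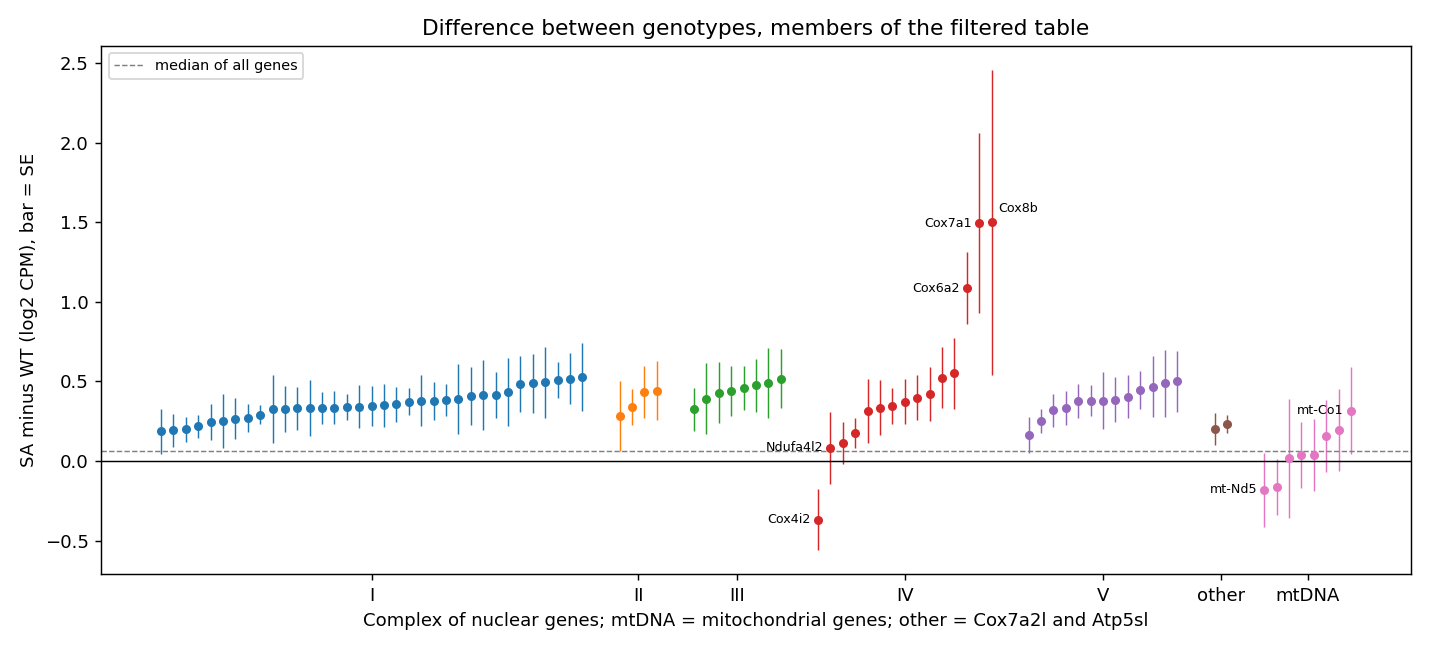
Difference between genotypes (SA minus WT, log2 CPM) of each member of the filtered table, with its standard error from limma, sorted within each complex; the dashed line is the median of all genes, 0.06. Most nuclear members lie between 0.2 and 0.5, Cox6a2, Cox7a1 and Cox8b lie above 1, and Cox4i2 is the nuclear member below 0.

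Complex I takes electrons from NADH and passes them to ubiquinone. Its 35 nuclear genes were all in the filtered table and all higher in SA, by 0.19 to 0.53 with a median of 0.34. The groups were separated for 31, where 37.8% of all genes were separated in that direction. Ndufs1, the largest subunit, which carries iron-sulphur clusters, had the largest difference, with levels of 6.37 and 6.59 in WT and 6.72 and 7.29 in SA. Its difference was 0.53 (SE 0.21), which is 1.44-fold, with an adjusted p of 0.210 by limma. All of its WT values lay below its SA values, but SA 2 stood further from SA 1 than SA 1 from WT 2. Ndufv1, which binds NADH and the flavin, read 6.72, 6.84, 6.89 and 7.50 from WT 1 to SA 2. The smallest difference was that of Ndufs6, an accessory subunit that binds zinc, at 0.19 (SE 0.14), with 4.40 and 4.44 in WT and 4.43 and 4.78 in SA, so that its groups overlapped. The lowest adjusted p among the members belonged to Ndufa2, a small accessory subunit with a thioredoxin-like fold, chosen here after its values were seen. Ndufa2 read 5.95 and 5.97 in WT and 6.20 and 6.30 in SA (difference 0.29, SE 0.06, adjusted p = 0.0829 by limma). It stands out by its narrow spread inside each group and not by its size.

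Complex II oxidises succinate and is also an enzyme of the citric acid cycle. All 4 of its genes were higher in SA, by 0.28 to 0.44. Sdhb, the iron-sulphur subunit, had the largest difference, with 6.37 and 6.57 in WT and 6.67 and 7.16 in SA (difference 0.44, SE 0.19, adjusted p = 0.222 by limma). Sdha, the flavoprotein with the highest level, had the smallest, and its groups overlapped, with 7.53 and 7.70 in WT and 7.60 and 8.20 in SA. Its difference of 0.28 (SE 0.22) rested on SA 2, without which it was -0.02.

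Complex III passes electrons from ubiquinol to cytochrome c. All 8 of its nuclear genes were higher in SA with separated groups, where 37.8% of all genes were. The differences were 0.32 to 0.52 with a median of 0.45. All 8 had the order WT 1, WT 2, SA 1, SA 2, where 14.1% of all genes had it. Uqcrc2, a core subunit with the highest level, read 7.17 and 7.32 in WT and 7.41 and 7.93 in SA. Uqcrc1, the other core subunit, read 7.17 and 7.34 in WT and 7.34 and 7.95 in SA, so WT 2 and SA 1 were close to equal. Uqcrfs1, the Rieske iron-sulphur protein, read 6.30, 6.46, 6.56 and 7.17 from WT 1 to SA 2. The largest difference was that of Uqcrq, a small subunit also called the ubiquinone-binding protein, at 0.52 (SE 0.18, adjusted p = 0.174 by limma), from 5.51 and 5.71 to 5.89 and 6.36. The smallest was that of Uqcrh, the hinge protein at the cytochrome c site, at 0.32 (SE 0.14), from 6.87 and 6.97 to 7.06 and 7.42.

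Complex V makes ATP. The 13 nuclear genes of complex V in the filtered table were all higher in SA, by 0.17 to 0.50 with a median of 0.38. The groups were separated for 12, where 37.8% of all genes were separated in that direction. Atp5b, the catalytic beta subunit, had the highest level of any nuclear member, at 9.45 and 9.63 in WT and 9.77 and 10.29 in SA (difference 0.49, SE 0.21, adjusted p = 0.226 by limma). Atp5a1, the alpha subunit that forms the catalytic head with it, read 9.23 and 9.35 in WT and 9.44 and 9.90 in SA. Both main subunits of the head thus had the same order of libraries. Atp5k, the small subunit e of the membrane part, had the largest difference, 0.50 (SE 0.19), from 5.44 and 5.68 to 5.82 and 6.31. Atp5d, the delta subunit of the central stalk, had the smallest, 0.17 (SE 0.11), and its groups overlapped, with 6.34 and 6.47 in WT and 6.44 and 6.70 in SA. Atp5o, a stalk subunit at chr16:91925214-91931687 on GRCm38, on the chromosome that also carries Ifnar1, was no exception, with 6.27 and 6.42 in WT and 6.55 and 7.07 in SA.

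Complex IV reduces oxygen to water, and its nuclear genes varied most among themselves. Of the 15 in the filtered table, 14 were higher in SA and 1 lower, with a median of 0.37 over a range of -0.37 to 1.50. The groups were separated for 10, all higher, where 37.8% of all genes were separated in that direction. Cox4i1, the widely expressed regulatory subunit with the highest level, read 7.77 and 7.90 in WT and 8.03 and 8.39 in SA (difference 0.37, SE 0.14, adjusted p = 0.186 by limma). Cox5a, a subunit on the matrix side, read 4.65 and 4.98 in WT and 4.90 and 5.36 in SA, with overlap. Cox6b1, which joins the monomers of the dimer, read 6.54, 6.75, 6.85 and 7.28 from WT 1 to SA 2. Cox7b, a small subunit of the membrane part, had 5.87 and 6.01 in WT and 6.19 and 6.80 in SA, with a difference of 0.55 (SE 0.22). These widely expressed subunits had differences of 0.31 to 0.55, where the nuclear genes of complexes I, II, III and V had 0.17 to 0.53. Cox7b thus lay just above that range, and Cox6a1, another widely expressed subunit, lay below it at 0.11. The largest and the smallest difference of complex IV belonged to isoforms of restricted expression.

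The muscle isoforms were far more unequal between libraries than their widely expressed partners. Cox6a2, at chr7:128205435-128206387, read 4.07 and 4.46 in WT and 5.11 and 5.60 in SA, a 2.12-fold difference of 1.09 (SE 0.23) with an adjusted p of 0.0833 by limma. Its partner Cox6a1 read 6.91, 7.05, 6.92 and 7.26 from WT 1 to SA 2, with overlapping groups and a difference of 0.11 (SE 0.13). Cox7a1, at chr7:30184144-30186078, read 3.11 and 3.92 in WT and 4.30 and 5.72 in SA (difference 1.50, SE 0.57, adjusted p = 0.189 by limma). Its groups were separated, but SA 2 lay far above SA 1. Its partner Cox7a2 read 6.44 and 6.41 in WT and 6.62 and 6.91 in SA, a difference of 0.34 (SE 0.11). Cox8b, at chr7:140898945-140900446, read 2.51 and 4.09 in WT and 3.65 and 5.95 in SA (difference 1.50, SE 0.96, adjusted p = 0.369 by limma). Its groups overlapped, since WT 2 was above SA 1, and the distance between libraries of the same genotype was larger than that between the genotypes. Cox8a, its partner, read 6.65, 6.85, 6.86 and 6.99, a difference of 0.18 (SE 0.09).

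To set the isoforms of a pair beside each other, reads were divided by the exon length of the gene in GENCODE M21, giving RPKM, the read count per kilobase of exon on the scale of CPM. Cox6a2 made up 12.6% and 14.7% of the RPKM of its pair in WT and 22.7% and 24.7% in SA. Cox7a1 made up 14.9% and 23.9% in WT and 26.2% and 43.6% in SA. Cox8b made up 8.85% and 20.2% in WT and 15.6% and 45.5% in SA. In SA 2, then, the muscle forms of Cox7a and Cox8 were close in level to the widely expressed forms, at 98.6 against 128 RPKM for Cox7a and 172 against 206 RPKM for Cox8. The log2 ratio of muscle to widely expressed form was higher in SA by 0.98 for Cox6a and by 1.15 for Cox7a, with separated groups, and each of these had an exact two-sided permutation p of 0.333, the smallest that 2 libraries against 2 can give. For Cox8 the ratio was higher by 1.32 with overlapping groups (exact permutation p = 0.667), and without SA 2 it was higher by 0.24. Without SA 2 the Cox7a ratio was higher by 0.59 and the Cox6a ratio by 0.89. Cox6a2 and Cox7a1 had the order of the muscle markers, whereas Cox8b had WT 2 above SA 1, as the brown fat markers did. Ucp1, the uncoupling protein of brown fat, read 3.07 and 5.91 in WT and 2.65 and 8.17 in SA. The part of muscle and brown fat RNA in the isoform levels was not tested.

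**Figure D3:**
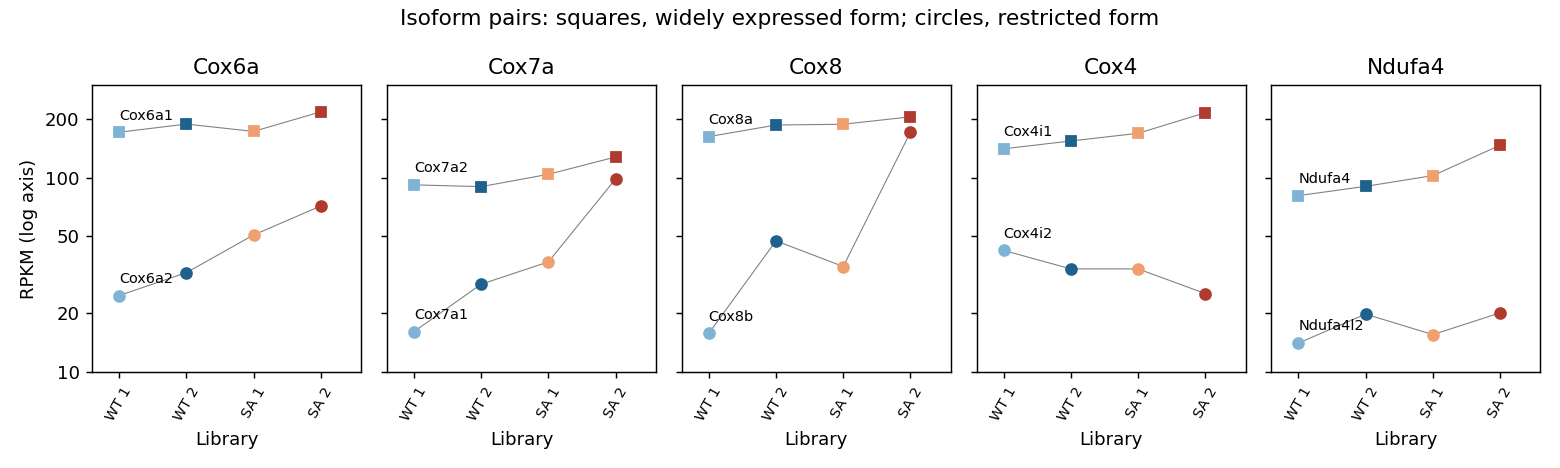
RPKM (log axis) in each library for 5 pairs of isoforms, with squares for the widely expressed form and circles for the restricted form. The circles of Cox6a2, Cox7a1 and Cox8b are highest in SA 2, at 71.5, 98.6 and 172 RPKM, and those of Cox4i2 are highest in WT 1 and lowest in SA 2.

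Other restricted isoforms took other courses. Cox4i2, the isoform known from lung and linked to the response to low oxygen, was the only nuclear member of the filtered table that was lower in SA, with 5.06 and 4.74 in WT and 4.74 and 4.32 in SA. Its difference was -0.37 (SE 0.19, adjusted p = 0.292 by limma). WT 2 and SA 1 were nearly equal, so the groups were not separated, and it was highest in WT 1 and lowest in SA 2, the reverse of most nuclear members. Its share of the RPKM of the Cox4 pair was 23.1% and 18.0% in WT and 16.7% and 10.5% in SA, a log2 ratio lower by 0.74 with separated groups (exact permutation p = 0.333). Cox4i2 in lung is known mostly from pericytes and vascular smooth muscle. Of 8 markers of those cells, 3 were higher and 5 lower in SA, with a median of -0.26, and their summed level was 527.0 and 526.3 CPM in WT and 486 and 556 CPM in SA. The groups were separated for 3 that were lower in SA (Pdgfrb -0.61, Notch3 -0.43 and Kcnj8 -0.58), where 22.9% of all genes were. They were separated for 1 that was higher (Myh11, 0.44), where 37.8% of all genes were. Others had overlapping groups: Higd1b, of pericytes, read 4.79 and 4.47 in WT and 4.67 and 4.15 in SA. Rgs5 read 4.28 and 5.003 in WT and 4.72 and 5.89 in SA. SA 2 was the highest library for 3 of the 8 markers. The part of these cells in the level of Cox4i2 was not tested. Ndufa4l2, an isoform induced by low oxygen, read 3.95 and 4.44 in WT and 4.09 and 4.46 in SA, with overlap and a difference of 0.08 (SE 0.22). Its partner Ndufa4 read 6.80 and 6.96 in WT and 7.14 and 7.67 in SA, a difference of 0.52 (SE 0.19). The share of Ndufa4l2 in this pair was 14.8% and 18.0% in WT and 13.2% and 12.1% in SA. Cox6b2, a form known from testis, had 69 to 94 reads per library and levels of 1.63 and 1.40 in WT and 1.34 and 1.25 in SA. Cox7b2 had 0 reads in all libraries and Cox8c, another testis form, had 1 read in WT 1 and 0 in the other 3. Cox7a2l, the supercomplex factor, read 6.46 and 6.42 in WT and 6.71 and 6.63 in SA (difference 0.23, SE 0.06, adjusted p = 0.0994 by limma), and with Cox4i2 it was 1 of the 2 nuclear members of the filtered table for which SA 2 was not the highest library.

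The mitochondrial genome had its own pattern, with high levels in WT 2 and SA 2 and low levels in WT 1 and SA 1. Its 13 genes together took 0.412% of gene reads in WT 1 (95% Wilson interval 0.409 to 0.414%), 0.484% in WT 2 (0.482 to 0.487%), 0.436% in SA 1 (0.434 to 0.439%) and 0.641% in SA 2 (0.638 to 0.643%). The mean share was 0.448% ± 0.0514 (SD, n = 2) in WT and 0.538% ± 0.145 (SD, n = 2) in SA, a difference of 0.0906 percentage points that is smaller than the SD of the SA group and was -0.0118 points without SA 2. Most of these reads came from 1 gene, mt-Co1, which took 0.264% and 0.302% in WT and 0.292% and 0.424% in SA. Without mt-Co1 the mitochondrial share was 0.148% and 0.182% in WT and 0.144% and 0.217% in SA. The nuclear members took 0.615% and 0.668% in WT and 0.728% and 0.972% in SA, with separated groups. The libraries had been depleted of ribosomal RNA, and reads of mitochondrial ribosomal RNA are not part of these shares.

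The 13 genes were counted very unequally. For 7 of them (mt-Nd1, mt-Nd2, mt-Nd4, mt-Nd5, mt-Nd6, mt-Cytb and mt-Co1) the level was 39.9 to 2742 RPKM, while for mt-Co2, mt-Co3, mt-Atp6, mt-Atp8, mt-Nd3 and mt-Nd4l it was 0 to 19.5 RPKM, with 0 to 587 reads. Mitochondrial mRNAs are cut from long precursors that each span many genes. Of the 6 low genes, 5 have nearly every 50-base stretch of their sequence in another annotated gene: 100% for mt-Co2, 99.9% for mt-Co3, 99.5% for mt-Atp6, 98.8% for mt-Nd4l and 98.0% for mt-Nd3. By this measure the exception is mt-Atp8, with 0% and 0 to 8 reads, whose end overlaps the start of mt-Atp6 on the genome. The measure searched annotated transcripts only, so a nuclear copy of mt-Atp8 outside them would not be seen. Among the 7 better counted genes the share was 62.2% for mt-Nd4, 51.1% for mt-Co1, 8.19% for mt-Nd2, 7.61% for mt-Nd5 and 0% for the other 3. The closest copies of 5 of the low genes had 1 to 525 reads per library. Gm28661, the copy of mt-Co2, had 55 to 146, and Gm28438, the copy of mt-Nd3, had 26 to 96. For Gm28437, the copy of mt-Co3, there were 219 to 525. Gm10925, the copy of mt-Atp6, had 33 to 111, and Gm10222, the copy of mt-Nd4l, had 1 to 5. The rules for reads that map to several places are not given in the sources used here, and the part of these copies in the low counts was not tested. The levels of the 6 low genes are therefore not read as levels of their transcripts.

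**Figure D4:**
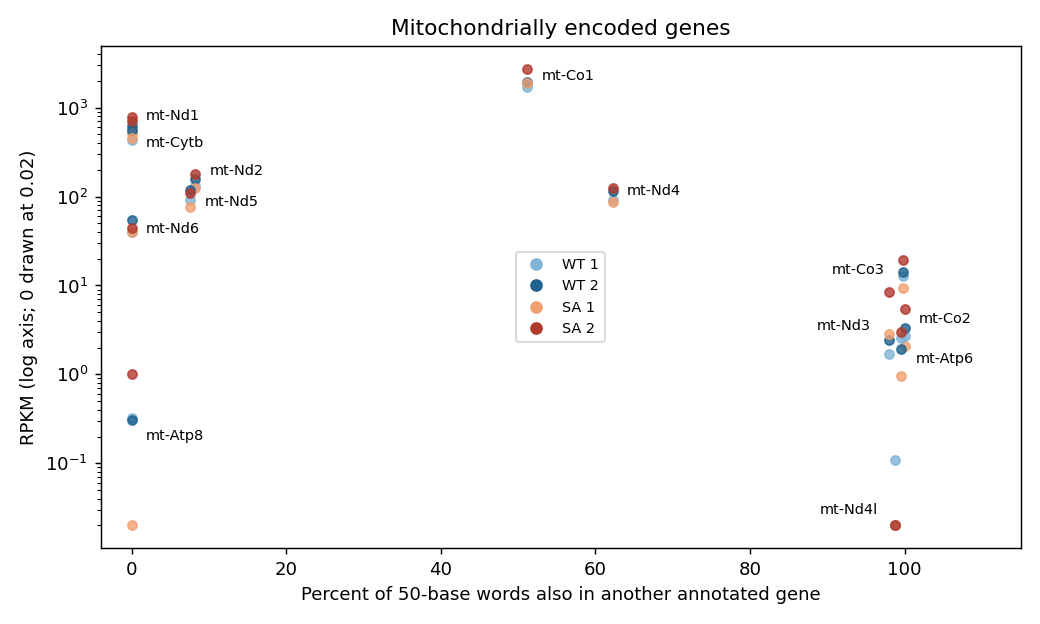
Level of the 13 mitochondrial genes (RPKM, log axis, with 0 drawn at 0.02) against the percentage of their 50-base stretches found in another annotated gene, in each library. The genes at 98.0% and above lie at 19.5 RPKM or less, those at 62.2% or less lie at 39.9 RPKM or more, and mt-Atp8 is low at 0%.

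Among the 7 better counted genes, 5 were higher in SA and 2 lower, with differences of -0.18 to 0.32 and a median of 0.04, and limma gave adjusted p-values of 0.490 to 0.927. Every one of the 7 was higher in WT 2 than in WT 1, where 46.5% of all genes were, and in SA 2 than in SA 1, where 48.6% were, and none was higher in SA 1 than in WT 2, where 60.9% of all genes were. The catalytic subunit of complex IV, mt-Co1, had the highest level, at 11.37 and 11.56 in WT and 11.51 and 12.05 in SA, and the largest difference, 0.32 (SE 0.27). The complex III subunit mt-Cytb read 8.96 and 9.33 in WT and 9.03 and 9.65 in SA. In both genes SA 1 fell between the WT libraries. The complex I subunit mt-Nd1 read 9.02 and 9.21 in WT and 8.97 and 9.57 in SA, so that SA 1 was the lowest of the 4. The same was found for mt-Nd2, at 7.09 and 7.37 in WT and 7.003 and 7.53 in SA, and for mt-Nd4, at 6.96 and 7.31 in WT and 6.91 and 7.45 in SA. The remaining complex I genes were the only ones with lower means in SA. These were mt-Nd5, with 7.37 and 7.77 in WT and 7.12 and 7.66 in SA, and mt-Nd6, the only protein gene on the other strand, with 4.39 and 4.83 in WT and 4.37 and 4.53 in SA. Among the low genes, mt-Co3 read 3.31 and 3.48 in WT and 2.89 and 3.94 in SA, and mt-Co2 read 0.88 and 1.20 in WT and 0.53 and 1.89 in SA. For mt-Atp6 there were 18 to 78 reads, for mt-Nd3 18 to 113, and for mt-Nd4l 1 read in WT 1 and 0 in the others.

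Nuclear and mitochondrial members thus changed in opposite directions from WT 2 to SA 1. Over that step the median nuclear member was higher by 0.14, while the median of the 7 better counted mitochondrial genes was -0.37. The mean log2 CPM of the 77 nuclear members minus that of the 7 better counted mitochondrial genes was -2.13 and -2.32 in the WT libraries and -1.83 and -1.94 in the SA libraries. This difference was higher in both SA libraries than in both WT libraries, so the 2 means lay closest together in SA 1. Higher levels in WT 2 and SA 2 than in WT 1 and SA 1, as in the mitochondrial genes, were also seen in the brown fat markers, whose mean level was 0.48, 3.08, 0.74 and 5.55 from WT 1 to SA 2 but not in the muscle markers, which were higher in both SA libraries than in both WT libraries. With the mean of the muscle markers as a covariate, which leaves 1 residual degree of freedom, the medians were -0.11 for nuclear and -0.87 for mitochondrial members. With the mean of the brown fat markers in its place, they were 0.28 and -0.12. The muscle mean was itself separated by genotype, so the fit with it cannot tell muscle RNA from genotype. No conclusion is drawn from that fit.

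**Figure D5:**
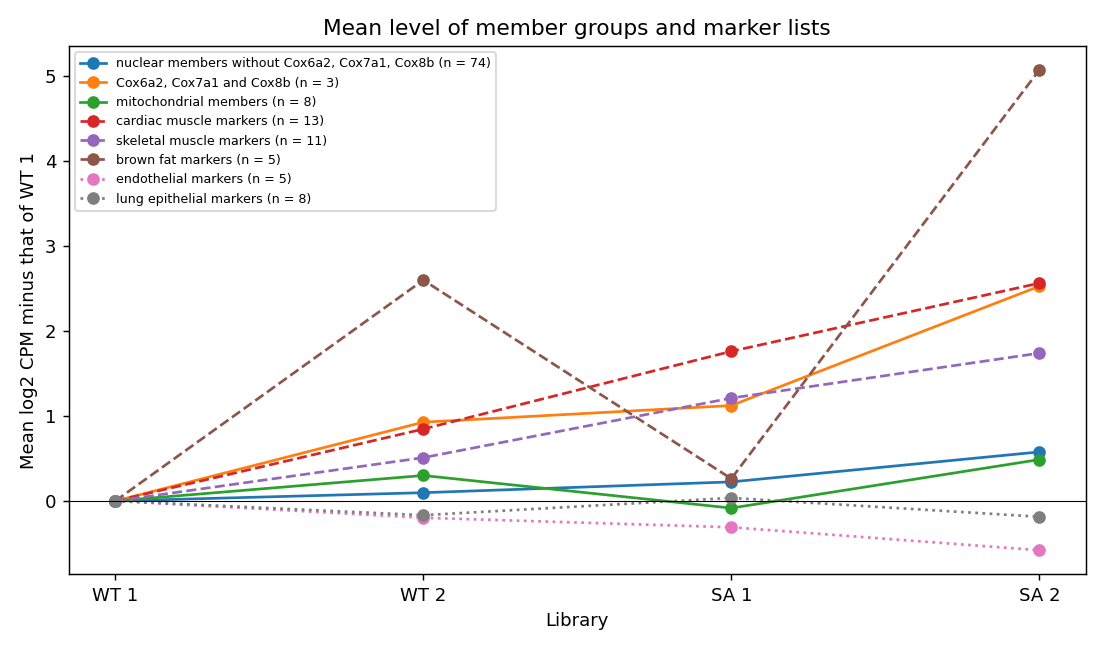
Mean log2 CPM of groups of members and of marker lists in each library, minus that of WT 1. Nuclear members and muscle markers have the order WT 1, WT 2, SA 1, SA 2, the mitochondrial members and brown fat markers are high in the libraries numbered 2 and low in those numbered 1, and endothelial markers have the reverse of the first order.

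Some nuclear members were barely counted although they encode subunits found in most tissues. Cox7c, a small subunit of complex IV, had 68 to 114 reads per library, Atp5l, subunit g of complex V, had 10 to 24, and Atp5g2, a gene for the rotor subunit c, had 24 to 47. By the same 50-base measure, 22.1%, 9.99% and 38.3% of their stretches are also in other annotated genes. The processed pseudogene Gm12338, which shares stretches with Cox7c, had 502 to 1115 reads, more than Cox7c itself in every library. The part of shared sequence in the low counts was not tested, and other members with shared stretches were counted at ordinary levels. Atp5o shares 41.6% of its stretches, in part with antisense genes at the same locus, and stood at 6.27 to 7.07. Strand settings of the counting are not given in the sources used here.

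Genes that serve the complexes without belonging to them also had higher means in SA. Of 50 entries for assembly factors, 36 were in the filtered table and 36 were higher in SA, with a median of 0.23. The groups were separated for 27, all higher, where 37.8% of all genes were. By limma 0 passed the adjusted threshold and 11 had an unadjusted p under 0.05, all higher, where 16.4% of all genes did. Among the 36 in the filtered table, Tmem126b, a factor in building the membrane arm of complex I, had the largest difference. It read 3.86 and 4.003 in WT and 4.47 and 4.45 in SA, and it did not share the higher level of SA 2. The order WT 1, WT 2, SA 1, SA 2 was found for 7 of the 36, where 14.1% of all genes had it. Of 6 further subunits and carriers outside the naming rule, 5 were in the filtered table and all 5 were higher. Ndufab1, the acyl carrier protein in complex I, read 3.78 and 4.003 in WT and 4.18 and 4.56 in SA, and Cyc1, which holds the cytochrome c1 haem of complex III, read 5.96 and 6.24 in WT and 6.18 and 6.84 in SA. Cycs, cytochrome c itself, had a difference of 0.43, and Atpif1, the inhibitor of complex V, one of 0.30.

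Regulators of mitochondrial biogenesis differed among themselves. Of the 15 in the filtered table, 11 were higher and 4 lower in SA, with a median of 0.12. The groups were separated for 10 that were higher, where 37.8% of all genes were, and for 1 that was lower, where 22.9% were. By limma 0 passed the adjusted threshold. At an unadjusted p under 0.05 there were 5 higher, where 16.4% of all genes were, and 1 lower, where 10.9% were. Ppargc1a, the coactivator best known for driving mitochondrial biogenesis in brown fat and muscle, read 3.14 and 3.49 in WT and 2.84 and 3.77 in SA, with the lowest level in SA 1, as in most of the mitochondrial genes. Nrf1, a transcription factor of many respiratory genes, was nearly level at 5.28, 5.29, 5.31 and 5.24. Esrra, a nuclear receptor that acts with Ppargc1a, read 4.95 and 4.996 in WT and 5.22 and 5.39 in SA. Tfam, which packs and transcribes mitochondrial DNA, read 4.90 and 4.89 in WT and 5.09 and 5.06 in SA. Pprc1, a relative of Ppargc1a, was lower in SA, with 3.92 and 4.06 in WT and 3.30 and 3.39 in SA (difference -0.65, adjusted p = 0.0634 by limma).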

How the data were processed

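Per the labels' protocols, RNA was isolated with RNeasy and made into stranded total RNA libraries after Ribo-Zero depletion. Per the submitters' processing notes, Subread, featureCounts, limma and GRCm38 were used; of versions, settings and annotation release, none were given in the sources used here. The authors deposited log2 values in a filtered and an unfiltered table. From the values, these are log2 CPM with 0.5 reads added; undoing this gave whole reads, within 0.001 read, for 100% of genes. The libraries of each pair differed by more than counting noise, with a chi-square of at least 50.1 per degree of freedom.

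SA was compared with WT on the filtered table in limma 3.58.1 (R 4.3.3), with lmFit, eBayes and a mean-variance trend, genotype only, two-sided, and Benjamini-Hochberg adjustment over 12850 genes (2 residual and 2.25 prior degrees of freedom; threshold 0.05). On data simulated 10 times with 200 of 12850 genes changed, it found 59.4% of changes of 1 log2 unit and 91.5% of changes of 2, and 6.79% of calls were false. Smaller changes, such as the differences of most members, were not simulated. The simulated noise was independent between genes and libraries, so these figures do not give the power for the members. Exon lengths and names came from GENCODE M21 and promoters from RefSeq; 50-base stretches were compared with annotated transcripts on either strand, with 50 bases chosen because read lengths were not given in the sources used. Named by rule were all mitochondrial genes, the isoform families, 10 core subunits, and in each complex the nuclear gene with the highest level and those with the largest and smallest difference; other genes are examples from the lists, and 1 gene named by the rule is not reported here. Members, gene lists and tests were chosen with earlier results of these data known. Alternatives covered the replicate number as a block, filters, scaling, pseudocount, trend, voom on the recovered reads, marker covariates and leaving out each library; the brown fat covariate was added after the data were seen.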

Additional observations from a re-analysis of the deposited data

How the results depend on the processing

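With 2 libraries in each group, precision was limited by the spread between libraries, in particular between SA 1 and SA 2, more than by depth. The replicate numbers are not tied to a litter or day in the labels, and same-numbered libraries deviated together. This was seen over 12041 genes with a mean log2 CPM of at least 1, from 2 pairs of libraries. The difference WT 2 minus WT 1 had a correlation of 0.644 with SA 2 minus SA 1. With a replicate block, 55 members passed, 54 of them higher, where 24.7% of all genes did. Of the 98 members of the unfiltered table, 20 passed, all higher, where 4.75% of its genes did, and with the brown fat covariate 29 of the 85 filtered members passed, where 11.1% of all genes did; the cause was not tested. With the muscle covariate 1 of the 85 passed, mt-Nd5, lower in SA, where 0.786% of all genes did. This covariate was separated by genotype, so its fit cannot tell muscle RNA from genotype. In the other fits to all 4 libraries 0 members passed. The share of all genes that passed in those fits ran from 0% with quantile normalization to 4.75% with a robust trend. The nuclear median was -0.1141 with the muscle covariate, and 0.198 to 0.5407 over the fits that leave out a library. The mitochondrial median was -0.0101 with median centring, -0.8699 with the muscle covariate, -0.117 with the brown fat covariate, and -0.2277 to 0.3833 over the leave-outs. The mitochondrial share differed by -0.0118 to 0.1929 points over the leave-outs. Among single genes, mt-Co3 was -0.0321 with median centring and -0.1796 with quantile normalization, and Ndufa4l2 was -0.0529 with the latter. With median centring mt-Nd2 was -0.0107 and mt-Nd4 -0.0096, and under median-of-ratios scaling in voom they were -0.0219 and -0.0206. Over the leave-outs, Cox6a1 ran from -0.0555 to 0.279, Sdha from -0.0197 to 0.5849, Ndufa4l2 from -0.1642 to 0.3311, mt-Co3 from -0.509 to 0.5406, mt-Cytb from -0.1148 to 0.5036 and mt-Nd1 from -0.1468 to 0.4591. They were -0.2246 to 0.2991 for mt-Nd2, -0.2309 to 0.3075 for mt-Nd4, -0.45 to 0.0878 for mt-Nd5 and -0.384 to 0.0561 for mt-Nd6. Of 555 values of named genes under the other settings, 22 changed sign, 28 newly passed the threshold and 505 did neither. Median centring moves all differences down by 0.05.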
